A study of Bos taurus with 6 samples.

Results

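The AP-1 family of transcription factors was described in bovine granulosa cells, the oestradiol-making cells inside the ovarian follicle, with and without treatment of the cow with cetrotide. The members were 8 of 15216 genes named on the array, taken by symbol: FOS, FOSB, FOSL1, FOSL2, JUN, JUNB, JUND and ATF3. Every array probe annotated to one of them was used. These were 12 of the 43794 gene probes on the array: 3 for FOSB, 2 each for FOS and FOSL2, and 1 for each of the other genes. All 12 passed the filter on dim spots, which left 31769 probes for testing. Both groups were multiparous Holstein cows with pre-ovulatory follicles grown under gonadotropin treatment, and in both the cells were collected by aspiration 68 hours after the last injection of follicle stimulating hormone (FSH), a rest known as coasting. The groups differed in cetrotide (cetrorelix), which blocks the receptor of gonadotropin releasing hormone and so reduces luteinizing hormone (LH). Its dose and timing, and what control cows received in its place, are not stated in the labels. The design text names 3 cows per condition. Each of 6 two-colour arrays compared 1 cetrotide RNA with 1 control RNA, 3 with cetrotide RNA in Cy5 (slide 1) and 3 with it in Cy3 (slide 2). Each slide 1 array was averaged with the slide 2 array of the same number into 1 dye-swap replicate (n = 3). Which cow lies behind which array is not stated either, so the p-values reflect variation among 3 averages that may be partly technical.

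AP-1 is not 1 protein but a set of dimers of basic leucine zipper proteins. FOS proteins (FOS, FOSB, FOSL1, FOSL2) cannot pair with themselves and need a JUN partner, whereas JUN proteins (JUN, JUNB, JUND) can also pair with each other, and ATF3, a stress-induced member of the related ATF group, pairs with JUN proteins or with itself. FOS, FOSB, JUN, JUNB and ATF3 are classic immediate early genes, transcribed within minutes of a growth factor, hormone or stress signal, and FOSL1 follows later and is itself a target of AP-1. In rodent ovaries, gonadotropins induce several of these factors in granulosa cells, where they act on genes of ovulation and luteinization.

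Between 53.5% and 82.5% of the gene probes exceeded the background limit on a given array for a given RNA, a limit that 95 percent of the negative control spots stayed under. Of the 17 granulosa markers listed, 15 passed the filter, all 15 of them above the limit for control RNA on at least 4 of the 6 arrays. FOXL2, a granulosa transcription factor, and the LH receptor LHCGR did not pass. No marker of any cell type list had an adjusted p under 0.05 with limma. At an unadjusted p under 0.05, 2 of 15 granulosa markers were lower (6.58% of all probes kept) and 4 of 10 epithelial markers were higher (7.84%). Of 11 theca and stroma, 9 endothelial and 12 leukocyte markers, 1 each was higher, close to the 7.84% of all probes. The theca and endothelial ones, COL1A2 and ENG, had control RNA above the limit on only 3 of 6 arrays. Both thus passed the filter through cetrotide RNA alone. The median log2 ratio of cetrotide over control for granulosa markers was -0.75, 0.13 and -1.52 in replicates 1, 2 and 3, and that of 10 epithelial markers 0.44, 1.31 and 3.25. The corresponding medians were 0.86, 0.07 and 0.13 for 11 markers of theca and stroma, 0.99, 0.02 and 0.66 for 9 of endothelium, and 0.64, -0.05 and 0.79 for 12 of leukocytes. Summed over its markers, the log2 level of the epithelial list ran from 13.83 to 17.41 in cetrotide RNA and from 10.92 to 13.77 in control RNA, and that of the granulosa list from 16.06 to 17.28 and from 17.09 to 17.40. The theca and stroma sum ran from 14.66 to 16.29 in cetrotide RNA and from 13.34 to 14.22 in control RNA, without overlap. Its list median hides 2 large ratios, COL3A1 with 8.37, 0.40 and 4.98 and COL1A2 with 7.23, 1.10 and 4.78 in replicates 1, 2 and 3. The endothelial and leukocyte sums overlapped between the RNAs. Control RNA was above the limit on at least 4 arrays for 9 of 11 theca and stroma, 7 of 9 endothelial, 12 of 12 leukocyte and 9 of 10 epithelial markers, so a few markers passed the filter through cetrotide RNA alone. In such bulk samples, fewer cells of a type and less RNA per cell cannot be told apart, and the part of these cell types in the AP-1 values was not tested.

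Some members had higher levels in cetrotide RNA and others had ratios near 0. Both FOSL2 probes and the dimmer FOS probe were near background in both RNAs, where a change is hard to see. FOSL1, FOSB, JUNB and JUND were higher with cetrotide on every array, on average by 2.55- to 8.07-fold, ATF3 was higher on every array with a wide spread, and FOS and FOSL2 had mean log2 ratios between -0.06 and 0.12. JUN differed in sign between replicates. The median log2 ratio of the 12 probes was 1.39, against -0.01 over all probes kept. Of the 12 probes, 7 were above 0 on all 6 arrays (7.67% of all probes kept), 7 were at least 2-fold higher on average (2.97% of all), and 0 were below 0 on all 6 arrays (7.44% of all). The levels of the 3 cetrotide replicates lay above those of the 3 control replicates without overlap for 7 of the 12 (9.17% of all). Each of these counts of 7 holds all 3 FOSB probes, which measure 1 gene.

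No member passed the adjusted threshold. With limma on the 3 replicates and Benjamini-Hochberg adjustment over the 31769 probes, 0 of 12 member probes had an adjusted p under 0.05 (0% of all probes). The lowest adjusted p of any probe kept was 0.185, a tied value that FOSL1, JUNB, JUND and 1 FOSB probe shared. Their unadjusted limma p ran from 0.000144 to 0.00126, so an equal adjusted p does not mean equal evidence. At an unadjusted p under 0.05, 6 of 12 were higher (7.84% of all) and 0 lower (6.58% of all). All 3 FOSB probes are among these 6, and by gene 4 of 8 members had at least 1 such probe. The share by gene over the array was not computed. In a second limma fit, which kept the 6 arrays apart, modelled dye and took the dye-swap pair as a replicate block, 4 of 12 passed as higher at an adjusted p under 0.05 (1.38% of all), namely FOSL1, JUNB, JUND and 1 FOSB probe. That fit used 1 consensus correlation of 0.852 between the arrays of a pair for all probes.

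**Figure D1:**
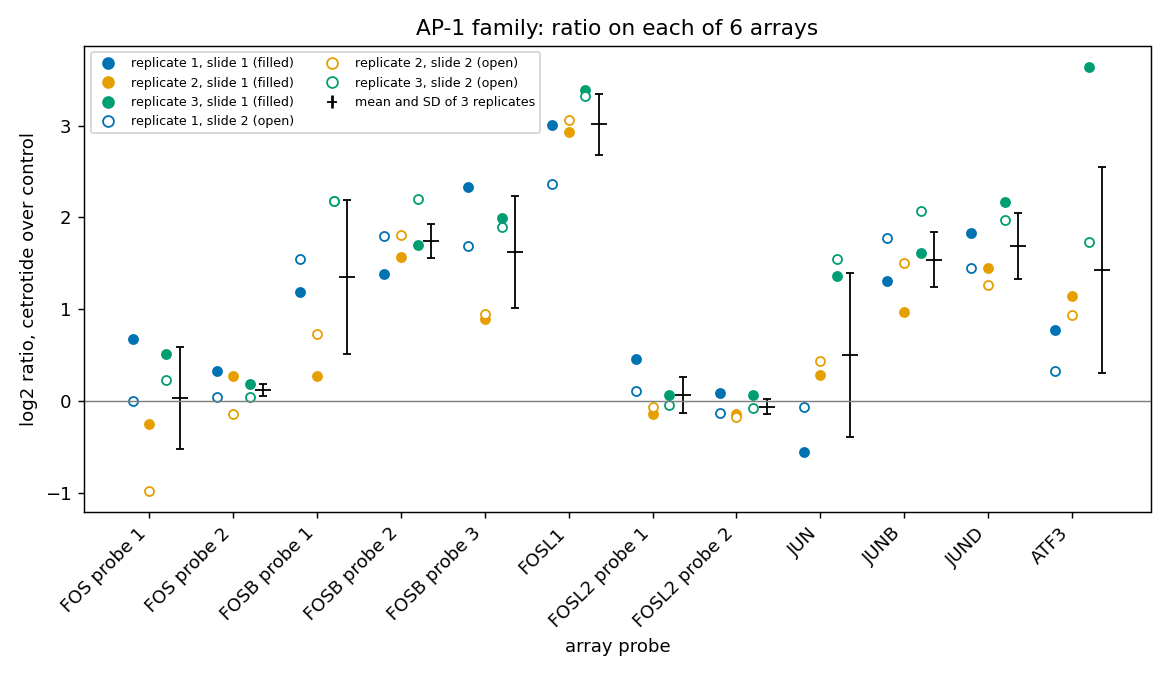
Log2 ratio of cetrotide over control (vertical axis) for each of the 12 AP-1 probes (horizontal axis) on 6 arrays, coloured by replicate, filled for slide 1 and open for slide 2, with the mean and SD of the 3 replicates in black. FOSL1 sits highest, with its 6 values between 2.37 and 3.39, the FOSB, JUNB and JUND values are all above 0, and those of FOS and FOSL2 lie around 0.

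FOSL1, also called FRA-1, is a FOS protein without the strong activation domain of FOS. Its single probe had the largest ratio of the family in each replicate. The log2 ratio was 2.69, 3.00 and 3.35 in replicates 1, 2 and 3, and the 6 arrays ran from 2.37 to 3.39. The log2 channel level was 9.63, 10.63 and 10.08 in cetrotide RNA and 6.94, 7.63 and 6.73 in control RNA. All 3 cetrotide levels were above all 3 control levels. The mean difference was 3.01 ± 0.33 (SD, n = 3) on the log2 scale, or 8.07-fold, with a 95% interval from limma of 2.54 to 3.49 (adjusted p = 0.185 with limma, and 0.0152 with the replicate block). In raw signal, cetrotide RNA gave 683 to 1975 units per array, which was 3.18 to 9.74 times the background limit. Control RNA gave 105 to 338 units, or 0.91 to 1.33 times that limit, and passed it on 5 of 6 arrays. With the control this close to background the size of the ratio followed the background treatment: it was 2.32 without background subtraction and 3.39 with an offset of 16 in place of 50.

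FOSB, an inducible FOS protein, was measured by 3 probes, numbered here by falling brightness, and all 3 were higher on all 6 arrays. Probe 2 was the steadiest. Its log2 ratio was 1.59, 1.69 and 1.95 in the 3 replicates, a mean of 1.74 ± 0.19 (SD, n = 3) or 3.35-fold (95% interval 1.44 to 2.05, adjusted p = 0.185 with limma and 0.0152 with the replicate block). Its log2 level was 11.49, 11.07 and 12.53 in cetrotide RNA against 9.90, 9.38 and 10.58 in control RNA. The groups did not overlap, and replicate 3 was the highest in both RNAs. Probe 1 had log2 ratios of 1.37, 0.50 and 2.18 (mean 1.35 ± 0.84) and probe 3 had 2.01, 0.92 and 1.95 (mean 1.63 ± 0.61), with adjusted p of 0.293 and 0.208 with limma. Both were lowest in replicate 2, where probe 2 was not. In that replicate probe 1 was 1.19 below probe 2 on the log2 scale, whereas in the other replicates probe 1 differed from probe 2 by -0.22 and 0.23. Probe 1 was bright, with raw signals of 12705 to 33539 units in cetrotide RNA, and probe 3 was dim, with control RNA above the limit on 5 of 6 arrays at 0.93 to 1.28 times its value. Without background subtraction, the ratio of probe 3 was 1.12.

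FOS, the founding member of the family, gave no such difference. Its bright probe had log2 ratios of 0.34, -0.61 and 0.37 in the 3 replicates, a mean of 0.03 ± 0.56 (SD, n = 3) with a 95% interval of -0.72 to 0.79 (adjusted p = 0.969 with limma). The level was 14.93, 13.91 and 15.20 in cetrotide RNA and 14.59, 14.52 and 14.83 in control RNA, so replicate 2 was lower with cetrotide and the groups overlapped. The sign of the mean turned with several settings, among them centring each array on its median (-0.14) and leaving out replicate 1 (-0.12) or replicate 3 (-0.13). The median pixel of this probe reached 49437 of a full scale of 65535. It passed the middle of the scale on 3 arrays for cetrotide RNA and on 2 for control RNA. The dim FOS probe had log2 ratios of 0.19, 0.06 and 0.12, a mean of 0.12 ± 0.06 (95% interval -0.07 to 0.32, adjusted p = 0.520 with limma). Its signal was 1.11 to 1.84 times the background limit in both RNAs.

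FOSL2, or FRA-2, which in rat ovary is found in luteal cells, also had ratios close to 0. Probe 1 had log2 ratios of 0.28, -0.10 and 0.01 (mean 0.06 ± 0.20, 95% interval -0.25 to 0.38) and probe 2 had -0.02, -0.15 and -0.01 (mean -0.06 ± 0.08, 95% interval -0.27 to 0.15), with adjusted p of 0.840 and 0.766 with limma. Cetrotide and control levels overlapped for both probes. Their signals were low in every channel, between 1.26 and 2.29 times the limit for probe 1 and between 0.93 and 1.14 times for probe 2. Probe 2 passed the limit for cetrotide RNA on 4 of 6 arrays.

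Among the JUN proteins, JUNB and JUND were both higher with cetrotide, by similar mean ratios once both dye orientations were averaged. JUNB, an inducible JUN protein that in many settings restrains JUN, had log2 ratios of 1.54, 1.24 and 1.84 in the 3 replicates. Its level was 9.37, 8.40 and 9.999 in cetrotide RNA and 7.83, 7.17 and 8.16 in control RNA. Replicate 2 was the lowest and replicate 3 the highest in both RNAs, and the groups did not overlap. The mean difference was 1.54 ± 0.30 (SD, n = 3), or 2.90-fold, with a 95% interval of 1.10 to 1.97 (adjusted p = 0.185 with limma and 0.0152 with the replicate block). JUND, which most cells express steadily and which slows growth in fibroblasts, had ratios of 1.64, 1.35 and 2.07. Its level was 11.96, 12.42 and 12.19 with cetrotide against 10.32, 11.07 and 10.13 in control RNA. Here replicate 2 had the highest level in both RNAs, and the groups again did not overlap. The mean was 1.69 ± 0.36, or 3.22-fold, with an interval of 1.18 to 2.19 (adjusted p = 0.185 with limma and 0.0166 with the replicate block). JUND was far from background, at 6.78 to 15.06 times the limit in control RNA and 13.56 to 39.57 times in cetrotide RNA, and its ratio stayed between 1.50 and 1.85 under the 15 alternative settings. JUNB was at 1.04 to 2.83 times the limit in control RNA, and its ratio was 1.16 without background subtraction.

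JUN, the founding JUN protein and a strong activator, differed from both. Its log2 ratio was -0.31, 0.36 and 1.46 in replicates 1, 2 and 3. Both arrays of replicate 1 were below 0 and the 4 others above it. The level was 10.11, 9.57 and 10.73 in cetrotide RNA and 10.42, 9.21 and 9.27 in control RNA, so the groups overlapped. The mean of 0.50 ± 0.89 (SD, n = 3; 95% interval -0.69 to 1.69; adjusted p = 0.666 with limma) rested on replicate 3, and without it the mean was 0.03. JUN was 1.95, 0.99 and 0.61 below JUND in log2 ratio in the 3 replicates, and 1.85, 0.88 and 0.38 below JUNB.

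**Figure D2:**
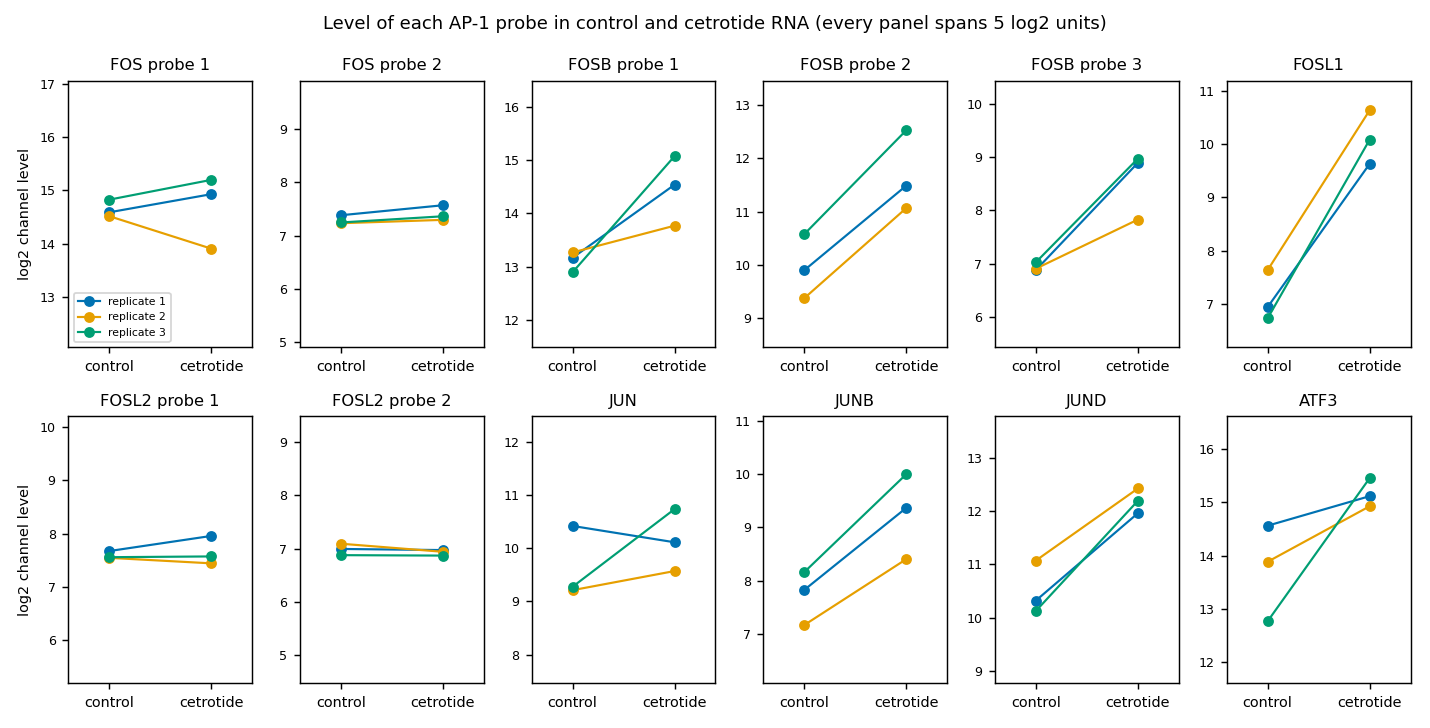
Log2 channel level of each AP-1 probe in control and cetrotide RNA, after normalization within and between arrays, with 1 line per replicate; the panels are centred differently but have the same span, and levels of different probes cannot be compared. The lines of FOSL1, FOSB, JUNB, JUND and ATF3 slope upward in all 3 replicates, those of FOSL2 are nearly level, and JUN and the bright FOS probe have lines in both directions.

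ATF3, a repressor or activator depending on its partner and a common marker of cell stress, had log2 ratios of 0.55, 1.04 and 2.69. It was above 0 on all 6 arrays, but the values spread more than those of any other member (mean 1.43 ± 1.12, SD, n = 3). The 2.69-fold mean had a 95% interval of -0.06 to 2.91 on the log2 scale and an adjusted p of 0.359 with limma and 0.303 with the replicate block. The cetrotide levels were 15.12, 14.93 and 15.46 and the control levels 14.56, 13.89 and 12.77. The groups did not overlap, and the control levels spread more widely than the cetrotide levels. Without replicate 3 the mean was 0.80. The median pixel of ATF3 was 34847 to 62926 of a full scale of 65535 in cetrotide RNA, past the middle of the scale on all 6 arrays, against 2963 to 27850 in control RNA. The raw mean signal of the same cetrotide spots ran only from 33142 to 37290 units. The narrow spread of the cetrotide levels has to be read with that, and the reason for it was not tested. On the replicate 3 arrays the log2 ratio was 3.64 on slide 1 and 1.74 on slide 2. The raw cetrotide signal there was 37289.9 and 37268.5 units, and the raw control signal 3696.62 and 13619.3 units. The reason for this gap was not tested. With median in place of mean pixel values the mean ratio was 1.84, and in the authors' deposited table it was 1.85.

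Replicate 3, where the epithelial median was highest and the granulosa median lowest, also had the highest ratio of FOSL1, JUNB, JUND, JUN, ATF3, FOSB probes 1 and 2 and the bright FOS probe. In replicates 1, 2 and 3 the log2 ratio of ATF3 was 0.55, 1.04 and 2.69, that of JUN -0.31, 0.36 and 1.46 and that of FOSL1 2.69, 3.00 and 3.35, beside 0.44, 1.31 and 3.25 for the epithelial median. Over only 3 replicates these follow the same order, and a link between them was not tested. JUNB, JUND and FOSB probes 1 and 3 were instead lowest in replicate 2, where the granulosa median was 0.13, the epithelial median 1.31 and those of theca, endothelium and leukocytes between -0.05 and 0.07.

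FOSL1 stood above every other member in each replicate. Per replicate, FOSL1 exceeded JUND by 1.05, 1.65 and 1.28 and JUNB by 1.15, 1.76 and 1.51 on the log2 scale, and it exceeded the bright FOSB probe by 1.32, 2.50 and 1.17. FOS minus FOSL1 was -2.35, -3.61 and -2.98. JUNB minus JUND was -0.10, -0.12 and -0.23 (mean -0.15 ± 0.07) as an average over both dye orientations. On slide 1 alone JUNB was at 1.29 and JUND at 1.81, and on slide 2 alone at 1.78 and 1.56. Without background subtraction they were at 1.16 and 1.57, so the small SD understates how far the 2 may differ. ATF3 exceeded JUN by 0.86, 0.68 and 1.23 although each of them varied between replicates. These differences are given as a description, since an exact sign-flip test over 3 pairs cannot go below p = 0.25.

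Dye orientation did not change the sign of the higher members. On slide 1 alone the mean log2 ratio was 3.11 for FOSL1, 1.81 for JUND, 1.29 for JUNB and 1.55 for FOSB probe 2, and on slide 2 alone 2.92, 1.56, 1.78 and 1.94. ATF3 had the largest gap, 1.85 on slide 1 and 1.00 on slide 2, followed by the bright FOS probe with 0.31 and -0.25.

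**Figure D3:**
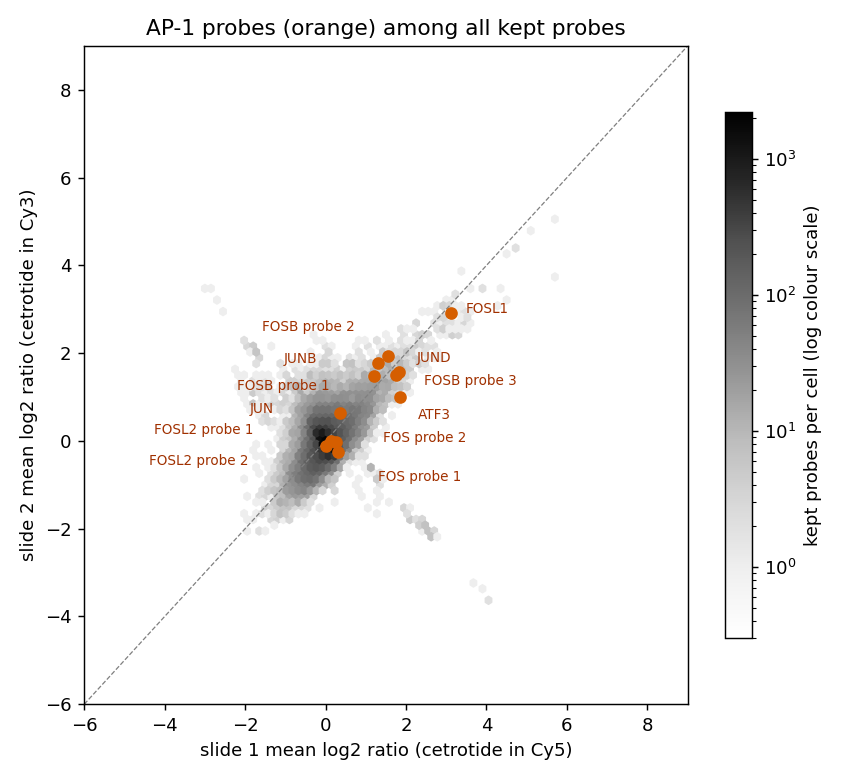
Mean log2 ratio of cetrotide over control on slide 1 (horizontal axis, cetrotide RNA in Cy5) against slide 2 (vertical axis, cetrotide RNA in Cy3) for all 31769 probes kept, as grey cells by number of probes, with the AP-1 probes in orange and the line of equality dashed. FOSL1 lies at 3.11 and 2.92, FOSB, JUNB and JUND lie near the line above 1, and FOS and FOSL2 lie within the dense centre.

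The wider AP-1 network was examined in 4 lists of genes, each gene by its brightest probe that passed the filter. Among genes with described AP-1 control in other cells, 27 of 34 passed the filter, and their median log2 ratio was 0.52 against -0.01 for all probes. The median was 0.40, 0.19 and 0.20 within replicates 1, 2 and 3, and 0.30 for the mean without replicate 1. Of these genes, 20 were above 0 and 7 below, where 47.0% of all probes were above 0. At an unadjusted p under 0.05, 8 had higher levels (7.84% of all probes) and 0 had lower levels (6.58%). None had an adjusted p under 0.05 with limma, and 3 passed as higher with the replicate block (1.38%). PHLDA1, a growth-regulated pleckstrin-like protein, had 0.71, 0.70 and 0.77 in the 3 replicates, and its adjusted p was 0.185 with limma and 0.0257 with the block. The tissue plasminogen activator PLAT had 2.47, 2.25 and 3.32 (adjusted p = 0.185 with limma and 0.0173 with the block). The third, neurotensin NTS, had 2.22, 4.68 and 4.66, but control RNA was above the limit on only 2 of 6 arrays. NTS thus passed the filter through cetrotide RNA alone, and its place in both counts has to be read with that. HMGA1, an architectural chromatin protein, had a mean of 0.78 ± 0.13 but 0.25 on slide 1 and 1.31 on slide 2. The keratin KRT18 (1.84 ± 1.02), which is also an epithelial marker, and the metalloproteinase inhibitor TIMP1 (1.22 ± 0.74, its other probe at 0.85) were likewise above 0 on all 6 arrays. Several well-known targets had ratios near or below 0. CXCL8 had 0.04 ± 0.72, IL6 0.10, MMP9 0.06, MMP1 -0.06 and the haem oxygenase HMOX1 -0.57 ± 0.88 as mean log2 ratios. The gap junction gene GJA1, also a granulosa marker, had -1.33 ± 1.28, with its other probe at -0.71. CXCL8 and HMOX1 differed in sign between replicates 1, 2 and 3, with 0.44, -0.79 and 0.46 for CXCL8 and -0.26, 0.11 and -1.57 for HMOX1. IL6, MMP9 and MMP1 were dim, with mean log2 levels between 7.05 and 7.32 in both RNAs. FOSL2 probe 2, near the background limit, had 6.93 and 6.99. Ratios at such levels cannot show whether these 3 targets changed.

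The other 3 lists had lower medians. The 21 of 27 kinases and factors upstream of AP-1 that passed the filter had a median log2 ratio of 0.15, with 17 above 0 (47.0% of all probes). Without replicate 1 that median was 0.27, close to the 0.30 of the target genes. At an unadjusted p under 0.05 there were 5 on the higher side (7.84% of all probes) and 0 on the lower (6.58%), and 1 gene passed with the block (1.38%). That gene was ELK3, a ternary complex factor that acts with serum response factor on the FOS promoter, with 1.62, 1.25 and 2.79 in the 3 replicates (adjusted p = 0.224 with limma and 0.0337 with the block). Control RNA of ELK3 was above the limit on 4 of 6 arrays. Its mean log2 level was 7.02 there against 8.91 in cetrotide RNA, so the size of its ratio is imprecise. The kinases MAP2K3 (0.66 ± 0.32) and ARAF (0.80 ± 0.50) followed. SRF itself had 0.15 and ELK1 0.13. Of 16 other basic leucine zipper factors, 8 were above 0 and 8 below, with a median of -0.01, and 3 had an unadjusted p under 0.05, all of them above 0 (7.84% of all probes). Those 3 were the small MAF proteins MAFK (0.61 ± 0.09, but -0.04 on slide 1 and 1.25 on slide 2) and MAFF (0.55 ± 0.09) and CEBPD (0.49 ± 0.12, with its other probe at 1.69). JDP2, a repressor that pairs with JUN, had 0.68 ± 0.70, and ATF2 and ATF4 had -0.06 and -0.35. Control RNA of JDP2 was above the limit on only 3 of 6 arrays, so it passed the filter through cetrotide RNA alone. Control RNA was above the limit on at least 4 arrays for 14 of the 16 factors, and the count above 0 has to be read with that. Among 9 regulators of AP-1 protein the median was 0.03, and an unadjusted p under 0.05 was found for 2 above 0 (7.84% of all probes) and 1 below (6.58%). The kinase subunit CSNK2A1 had 0.42 ± 0.05, the signalosome subunit COPS5, first described as a coactivator of JUN, -0.56 ± 0.14, the pseudokinase TRIB1 2.39 ± 1.66 with other probes at 1.54 and 0.02, and NACA, another JUN coactivator, -1.07 ± 0.89. No gene of these 3 lists had an adjusted p under 0.05 with limma.

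**Figure D4:**
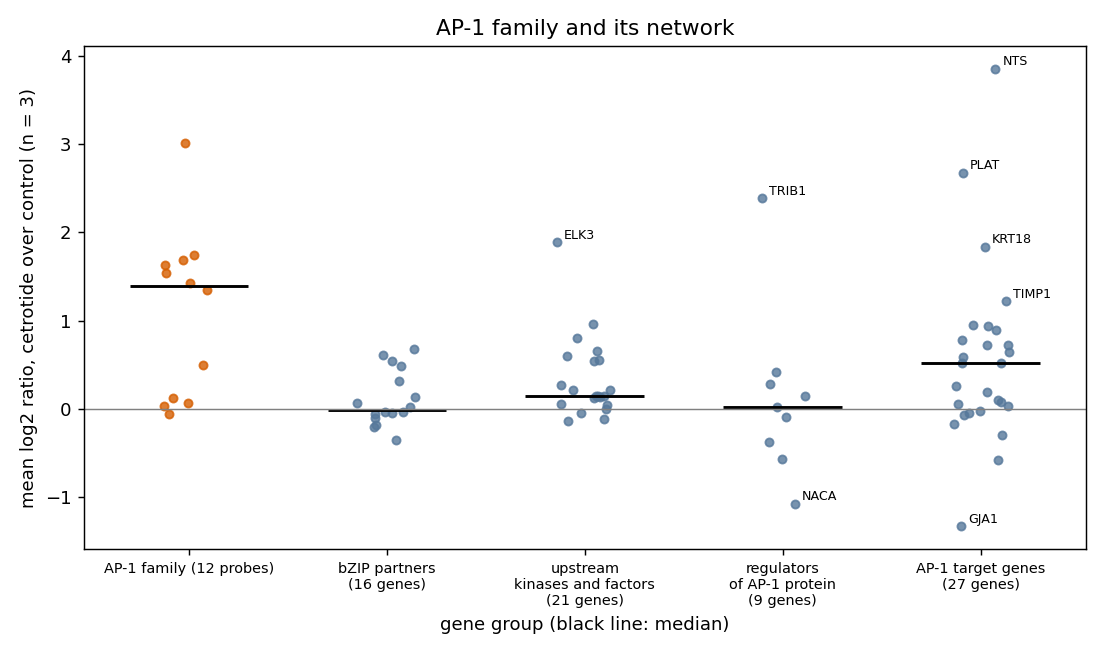
Mean log2 ratio of cetrotide over control over 3 replicates (vertical axis) for the 12 AP-1 probes and for 4 lists of network genes, 1 point per probe or gene, with the median as a black line and list genes named at 2-fold or more. The family's median is 1.39, that of the target genes 0.52, and those of the other lists 0.15 or less.

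The genes whose 6 array ratios were most like those of FOSL1, by the root mean square difference of log2 ratios over 12388 other named genes, were PLAT (0.47), the stress-induced zinc finger gene ZFAND2A (0.50), the acute phase gene SAA3 (0.75) and the transcription factor ETS2 (0.80). ZFAND2A had another probe at 0.10. For JUND, the second largest mean among the brightest probes, the nearest were the stress-induced gene GADD45G (0.11), the lysosomal protein precursor PSAP (0.13), the adaptor BCAR1 (0.26) and EHD4 (0.28) of membrane recycling. The log2 ratio of GADD45G was 1.66, 1.45 and 2.17 in replicates 1, 2 and 3, and that of PSAP 1.65, 1.46 and 2.02. These are descriptions over 6 arrays of 3 pairs, without a test.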

How the data were processed

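Two-colour array data of 6 arrays were used. The authors' deposited scanner tables hold spot and local background intensities at 532 nm (Cy3) and 635 nm (Cy5), not background corrected, per the file headers. Per the labels' protocols, RNA was amplified over 2 rounds and labelled chemically. The authors' deposited processed table was taken as log2 ratios, with each column running cetrotide over control (slopes of 0.828 to 0.930 on log2 median-pixel ratios). Its centring and normalization steps are unknown, and it served as an alternative. The scanner and its software are not stated.

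Mean intensities were corrected with normexp (offset 50) on median local background and normalized by loess within arrays, control spots at weight 0, with limma 3.58.1 in R 4.3.3. Log2 channel levels are after Aquantile between arrays as well. The background limit was the 95th percentile of 153 negative control spots. A probe was kept if above it for cetrotide RNA on at least 4 of 6 arrays or for control RNA on at least 4. Same-area arrays were averaged: across probes, their deviations from the slide mean correlated at 0.898, 0.933 and 0.953, against -0.710 to -0.000372 for other pairs, and their ratios at 0.623, 0.440 and 0.760. Limma (lmFit with an intercept, eBayes) tested 3 averages against 0, two-sided, with Benjamini-Hochberg adjustment over 31769 probes, every kept probe being tested rather than 1 per gene. The fit was also run on simulated ratios with independent replicates, as a check of the code and not of the error rate in these data. Alternatives were background treatment, signal, offset, normalization, filter, 1 probe per gene, the authors' table, each slide, block fits and leaving out replicates.

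Symbols came from the platform annotation, updated through the RefSeq gene table of ARS-UCD2.0. The named-gene rule took every member, the 3 genes of each network list with the smallest p, list genes at 2-fold with 1 sign on all 6 arrays, and 4 genes most like each of 2 members. Other list genes (IL6, CXCL8, MMP1, MMP9, HMOX1, GJA1, SRF, ELK1, JDP2, ATF2, ATF4) and the marker COL3A1 were named after their values were seen. The members and lists were chosen with earlier results of these data known. Probe and gene sequences were not used here. The number of arrays limits the precision.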

Additional observations from a re-analysis of the deposited data

How the results depend on the processing

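Under the alternatives run, FOSL1, JUNB, JUND, ATF3, JUN and all 3 FOSB probes kept a mean log2 ratio above 0, with ranges of 2.32 to 3.39, 1.16 to 1.78, 1.50 to 1.85, 0.80 to 1.86, 0.03 to 0.91 and, for FOSB probes 1 to 3, 0.94 to 1.78, 1.55 to 1.94 and 1.12 to 1.98. In the fit with the replicate block, the values of FOSB probe 2 (1.74), FOSL1 (3.01), JUNB (1.54) and JUND (1.69) passed the adjusted threshold, 4 of the member probes, as did 440 probes on the higher and 299 on the lower side of the whole array, against 0 in the fit of 3 averages. The block changed no other member's call. With the 6 arrays taken as separate samples and no replicate block, 6 member probes passed, FOSB probes 1 to 3 (1.35, 1.74 and 1.63), FOSL1 (3.01), JUNB (1.54) and JUND (1.69), with 2022 probes higher and 1689 lower, but arrays of a pair share RNA there. On slide 2 alone FOSB probe 2 (1.94), FOSL1 (2.92) and JUNB (1.78) passed, 3 member probes, with 721 higher and 251 lower. Signs turned only for members near 0. FOS probe 1 was at -0.14 with median centring and -0.25 on slide 2, and FOS probe 2 at -0.019 on slide 2. FOSL2 probe 2 was at 0.048 with median pixels, 0.023 in the authors' deposited table and 0.0063 on slide 1. Leaving out 1 replicate moved FOS probe 1 between -0.13 and 0.36 and FOSL2 probe 1 between -0.045 and 0.15. It moved the median of the bZIP partners between 0.0072 and 0.16, that of upstream genes between 0.21 and 0.27, that of regulators between -0.16 and 0.13, and that of targets between 0.30 and 0.41. The target median was 0.34 with median centring and 0.38 on slide 1, the upstream median 0.30 on slide 1 and the regulator median -0.14 on slide 2. The causes of these shifts were not tested. FOSL1, FOSB probe 3, JUNB, both FOSL2 probes and FOS probe 2 were near the background limit in at least 1 RNA, which limits the precision of their ratios.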
